A study of Mus musculus with 19 samples.

Results

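The 9 genes described here encode the core of the AP-1 transcription factor, in 3 families: Fos, Fosb, Fosl1 and Fosl2 (Fos family), Jun, Junb and Jund (Jun family), and Atf3 and Jdp2, 2 related basic leucine zipper (bZIP) factors. They were chosen by name, with earlier results of these data known, and are 9 of the 55487 genes in the count table. Their RNA was counted in mouse hepatic stellate cells (HSCs), the vitamin A-storing cells of the liver that turn into matrix-producing myofibroblasts after injury and also when plated on a rigid dish. HSCs of healthy, untreated male Balb/c mice of 23 to 24 weeks were sorted by their ultraviolet autofluorescence and either lysed uncultured (0 h) or kept on collagen-coated plastic in DMEM with 10% fetal bovine serum for 3, 6, 12, 18, 24 or 96 h, with medium changes after 3 h and 24 h. There were 19 libraries: 2 at 0 h (isolations 2 and 3), 2 at 24 h (isolations 1 and 2) and 3 at each other timepoint. Isolation numbers are the tags M1 to M3 of the sample labels, which give 1 isolation date for M1 and M3 and another for M2. By the study's account the repeats were independent, and each stands for 2 technical repeats. All cells had been through isolation and sorting, so no group holds HSCs in undisturbed tissue.

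AP-1 binds DNA as a dimer of 2 bZIP proteins. Jun proteins pair with themselves or with Fos proteins, whereas Fos proteins need a Jun partner; Atf3 and Jdp2 can join Jun and often repress the same sites. Fos, Fosb, Jun, Junb and Atf3 are classical immediate early genes, switched on within minutes of serum, stress or tissue dissociation through kinases that act on factors already sitting on their promoters. Fosl1 and Fosl2 usually follow later and lack the strong activation domain of Fos. In HSCs, AP-1, and JunD in particular, is known as a regulator of matrix genes during activation.

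Levels are given as CPM (reads scaled to a common library total) after TMM scaling, as mean ± SD. The libraries capture the 3′ end of each transcript. Levels were compared over time within a gene and not between genes. Differences were taken from an edgeR quasi-likelihood fit of all 19 libraries and were called when the adjusted p was under 0.1 and the levels differed more than 2 times. Libraries held 2073171 to 7690892 counts, so that 3 counts equal 0.386 to 1.51 CPM. A count of 0 in this table is not proof of a silent gene. Of 14478 genes that reached 30 counts in some library, 7172 were listed at 0 in a library of a timepoint at which another library had at least 30, with 322 to 1710 such zeros per library, and genes that every cell uses were among them: Polr2e, a subunit of RNA polymerase II with a median of 384 counts, was listed at 0 in 1 library. Zeros are therefore given as "listed at 0", and no fold change is drawn from a group at 0. Among the members this touches Fosl1, Jdp2 and Atf3 below, and it also touches genes of the pathway lists further down. The other 6 members were counted in every library.

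Stellate markers summed to 32170 to 37140 CPM at 0 h and to 2852 to 3193 CPM at 96 h. Of the 12, 9 were called lower at 96 h and Gfap was listed at 0 from 6 h on. Markers of other liver cells were present at 0 h: the 9 hepatocyte markers summed to 3416 to 7315 CPM at 0 h and 27.1 to 88.9 CPM at 96 h, with 8 called lower, the 8 endothelial markers to 3131 to 3700 and 560 to 1017 CPM, with 2 called lower and Lyve1 listed at 0 at 0 h, and the 11 Kupffer cell and leukocyte markers to 432 to 490 and 23.3 to 46.2 CPM, with 6 called lower and Cd3e and Cd79a listed at 0 at 0 h. The 5 cholangiocyte markers stayed at or under 14.6 CPM at every timepoint, and the 6 smooth muscle and portal fibroblast markers summed to 90.4 to 97.8 CPM at 0 h, 4.39 to 14.3 CPM at 18 h and 93.8 to 117 CPM at 96 h. The part of these cells in the AP-1 values was not tested, and fewer cells of a type and less RNA per cell cannot be told apart in bulk libraries.

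The sequences ahead of the members' start sites are shown first because the immediate early members carry related short letters there. RefSeq promoters (GRCm38.p6) were matched for 8 members and searched over the 250 bases before each start, on both strands. For Jund this window (chr8:70697489-70697738) ended upstream of the gene start given below (70698949), so the bases just before that start were not searched. In Atf3 (chr1:191183334-191183583) and Fosl2 (chr5:32136222-32136471) it lay inside the gene as given below, so the bases before those gene starts were not searched either. Positions of matches are counted from the RefSeq start. The full cyclic AMP response element TGACGTCA, held by 1.55% of 32851 mouse promoters in the same window, the AP-1 site TGACTCA (4.46%) and the CArG box bound by serum response factor (1.47%) were found in none of the 8. TGACG, the first letters of the response element, was looked for after the sequences had been seen. It occurred in Fos, Fosb, Junb, Atf3 and Jdp2, and in 19.8% of all genes with a promoter entry (17.8% of promoters). Jdp2 had 3 of the members' 10 entries, of which 1 held the match. Jun held TGACATCA, which fits TGACNTCA (7.49% of promoters). In the lines below, 5′ to 3′ on the gene's own strand, capitals mark the match, and in Atf3 they mark its reverse complement.
Fos (plus strand, chr12:85473804-85473848, outside annotated genes): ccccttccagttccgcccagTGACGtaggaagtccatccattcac
Fosb (minus strand, chr7:19310081-19310125, outside annotated genes): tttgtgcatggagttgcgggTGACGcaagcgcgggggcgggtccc
Jun (minus strand, chr4:95052240-95052287, within the antisense gene Junos but in no exon): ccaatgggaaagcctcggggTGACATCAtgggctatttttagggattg
Junb (minus strand, chr8:84978830-84978874, outside annotated genes): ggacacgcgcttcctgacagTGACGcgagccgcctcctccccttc
Atf3 (minus strand, chr1:191183334-191183360, in an annotated Atf3 exon): ggaagctattaatagcattaCGTCAgc
Jdp2 (plus strand, chr12:85599282-85599326, within the Jdp2 gene but in no exon): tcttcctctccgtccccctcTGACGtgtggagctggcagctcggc
Counted from the start site, the first base of the match was at -66 in Fos, -60 in Fosb, -45 in Jun, -106 in Junb, -7 in Atf3 and -114 in Jdp2, and Fos held a second TGACG at -129. These are matches of letters only. They say nothing of occupancy in HSCs, and an absent match says only that the letters are not in this window.

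Over the whole series, 8 of the 9 members differed over the 7 timepoints, all but Fosl1, in a test that called 27.4% of the 15138 genes tested. All 9 members had passed the filter on low counts. Against 0 h, 3 members were called at 3 h, 2 higher and 1 lower, where 5.58% of all genes were called (4.19% higher, 1.39% lower). At 6 h there were 2 higher and 4 lower (11.3% of all genes, 6.98% higher and 4.35% lower), and by 12 h 2 higher and 5 lower (17.7%, 8.60% and 9.10%). The count was 1 higher and 6 lower at 18 h (15.9%, 7.64% and 8.21%), then 1 higher and 5 lower at 24 h (9.51%, 5.65% and 3.86%), and again 1 higher and 6 lower at 96 h (10.9%, 5.83% and 5.03%). The 1 member called higher from 18 h on was Jdp2, whose calls rest on its zeros at 0 h, and the same holds for 1 of the 2 called higher before. From 6 h on, a larger share of the 9 members than of all genes was called lower. Among the members with no library at 0 in either group, the median log2 fold change in order of time was -0.46, -1.12, -1.79, -2.84 and -3.35 (7 members each) and -4.45 (6 members), beside medians over all genes of 0 up to 24 h and 0.07 at 96 h. All comparisons with 0 h share the same 2 uncultured libraries.

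Between successive timepoints, 5 members fell from 3 to 6 h, when 4.49% of all genes were called (2.50% higher, 1.99% lower). From 6 to 12 h 2 members fell (1.84% of all genes, 0.416% higher and 1.42% lower), as did 2 from 12 to 18 h (0.225%, 0.0727% and 0.152%). From 18 to 24 h edgeR called no member, with 2 members at an unadjusted p under 0.05, and 6 of all genes tested (0.0396%, 0.0132% and 0.0264%); DESeq2 called no member either. From 24 to 96 h 1 member rose and 2 fell (2.72%, 1.37% and 1.35%). Over longer spans, 6 members fell from 3 to 12 h (14.4% of all genes called, 6.46% higher and 7.90% lower), 3 from 6 to 18 h (4.13%, 1.14% and 2.99%), 7 from 3 to 96 h (13.7%, 6.24% and 7.48%), 6 from 6 to 96 h (13.2%, 5.76% and 7.46%) and 4 from 12 to 96 h (13.5%, 6.96% and 6.57%), with none called higher in these 5 spans. From 3 to 12 h, the call of Atf3 (log2 fold change -1.64, adjusted p = 0.0502) was lost without the 12 h library of isolation 1 or 3. It was also lost without the 3 h library of isolation 1. The call of Junb (-1.06) was lost with library size scaling (-0.91) and without the 12 h library of isolation 2 (-0.95).

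**Figure D1:**
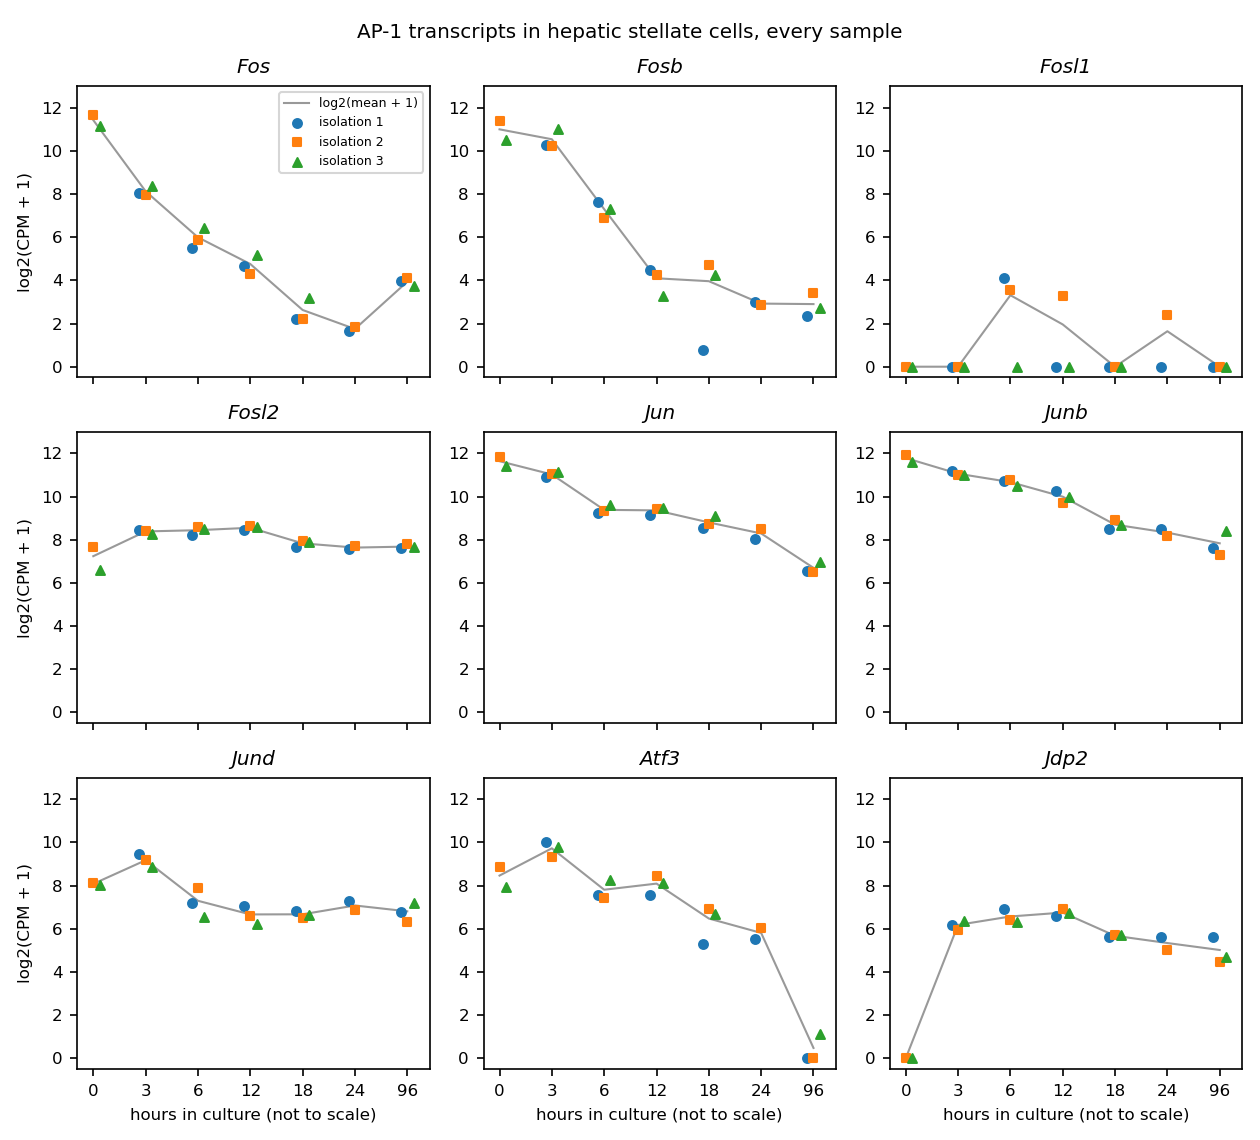
Level of each AP-1 member in every library, as log2(CPM + 1), against hours in culture (timepoints evenly spaced, not to scale). Symbols mark the isolation, and the grey line joins the log2 of the group means plus 1; Fos, Fosb, Jun and Junb start high and end low, Jdp2 is listed at 0 at 0 h only, and Atf3 is at or near 0 at 96 h.

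Fos, the prototype immediate early gene (ENSMUSG00000021250, chromosome 12, 85473890 to 85477273, plus strand), was highest in uncultured cells, at 3189 CPM in isolation 2 and 2287 CPM in isolation 3. At 3 h its 3 libraries held 247 to 327 CPM, at 6 h 43.6 to 86.1 CPM, at 12 h 18.7 to 35.1 CPM, at 18 h 3.66 to 8.19 CPM and at 24 h 2.15 and 2.57 CPM. No library at one of these times overlapped the range of an earlier one. The fall against 0 h was already 9.85-fold at 3 h (log2 fold change -3.30 ± 0.35 SE, adjusted p = 2.54e-05) and reached 1140-fold at 24 h (-10.15 ± 0.56, adjusted p = 3.35e-08), where the value rests on 10 and 20 counts. Each step down to 18 h was called: -2.15 from 3 to 6 h (adjusted p = 0.00145), -1.26 from 6 to 12 h (adjusted p = 0.0647) and -2.32 from 12 to 18 h (adjusted p = 0.00654). The 6 to 12 h step lost its call when any of 5 libraries was left out (the 0 h library of isolation 2, the 6 h libraries of isolations 2 and 3, or the 12 h libraries of isolations 1 and 2), with log2 fold changes of -0.96 to -1.28. It and the 12 to 18 h step also lost their calls in a fit of the 2 groups alone (-1.25 and -2.32) and with libraries thinned to the smallest total (-1.25 and -2.40). The step from 18 to 24 h was not called (-1.12, adjusted p = 0.656).

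Fos did not stay at its lowest level. At 96 h the 3 libraries held 14.6, 15.98 and 12.3 CPM, all above every library at 18 and 24 h and below every library at 12 h. The rise from 24 to 96 h was 5.95-fold (log2 fold change 2.57 ± 0.42, adjusted p = 0.00312), and that from 18 to 96 h 2.74-fold (1.45 ± 0.34, adjusted p = 0.0138). It was the one member called higher at 96 h than at 24 h. The level at 96 h remained 191-fold below 0 h (-7.58 ± 0.42, adjusted p = 1.23e-08). Both rises lost their call in a fit of the 2 groups alone, with estimates of 2.57 and 1.49, and the rise from 18 h did so when libraries were thinned to the smallest total (1.14).

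Fosb, which is induced with Fos and has a short splice form that acts as a long-lived repressor (ENSMUSG00000003545, chromosome 7, 19302696 to 19310051, minus strand), fell later. It held 2631 and 1442 CPM at 0 h and still 1226, 1182 and 2038 CPM at 3 h, where the groups overlapped (log2 fold change -0.46 ± 0.68, adjusted p = 0.856). Within isolation 2 it went down by 3 h (-1.15) and within isolation 3 up (0.50), and without the 0 h library of isolation 2 the estimate turned to 0.07. The drop came between 3 and 6 h, to 116 to 198 CPM (-3.25 ± 0.67, adjusted p = 0.0117), and between 6 and 12 h, to 8.81 to 21.3 CPM (-3.29 ± 0.69, adjusted p = 0.0228). That second step missed the threshold without the 12 h library of isolation 3 (-2.98). After 12 h no successive step was called. At 18 h the libraries stood apart, at 0.731 (3 counts), 25.3 and 17.7 CPM, and at 24 h they held 6.87 and 6.30 CPM. At 96 h Fosb was 6.46 ± 3.01 CPM (n = 3), 310-fold below 0 h (-8.28 ± 0.88, adjusted p = 1.22e-05), and it did not share the rise of Fos from 24 h (-0.01 ± 0.78, adjusted p = 1.00). Whether Fos and Fosb differ in that step was not tested. Splice forms cannot be told apart by 3′ counts summed per gene.

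Fosl1, which encodes Fra-1 (ENSMUSG00000024912, chromosome 19, 5447547 to 5455946, plus strand), had counts in 4 of 19 libraries: 54 in isolations 1 and 2 at 6 h (16.02 and 10.7 CPM), 51 in isolation 2 at 12 h (8.65 CPM) and 33 in isolation 2 at 24 h (4.24 CPM). The other 15 libraries listed it at 0, isolation 3 at every timepoint. No comparison called it, and the test over all timepoints gave an adjusted p of 0.225. Its last 2767 bases overlap Ccdc85b on the opposite strand, which averaged 39.5 CPM at 0 h and 621 CPM at 12 h, and how the counting treated strand is not given in the sources used here. The level of Fosl1 cannot be read from these libraries. RefSeq promoters held no entry for it.

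Fosl2, which encodes Fra-2 (ENSMUSG00000029135, chromosome 5, 32135801 to 32157842, plus strand), moved the other way from Fos. At 0 h it held 205 CPM in isolation 2 and 95.4 CPM in isolation 3. All 9 libraries from 3 to 12 h lay above both, at 304 to 354 CPM at 3 h, 299 to 380 CPM at 6 h and 344 to 403 CPM at 12 h. The rise was 2.22-fold at 3 h (log2 fold change 1.15 ± 0.25, adjusted p = 0.0132), 2.30-fold at 6 h (1.20 ± 0.25, adjusted p = 0.00513) and 2.49-fold at 12 h (1.32 ± 0.25, adjusted p = 0.00183). No difference among these 3 timepoints was called. Fosl2 was then 227 ± 24.4 CPM at 18 h (n = 3), 198 ± 15.3 CPM at 24 h (n = 2) and 205 ± 15.6 CPM at 96 h (n = 3), none of which was called against 0 h (0.59, 0.40 and 0.44). Without the isolation 3 library at 0 h the rises were 0.70, 0.73 and 0.85, none called, and the estimates at 24 and 96 h turned to -0.05 and -0.01. The 3 h call was also lost in a fit of the 2 groups alone (1.21) and the 6 h call with DESeq2 (0.97). Without the isolation 2 library at 0 h, 18, 24 and 96 h were called higher as well (1.19, 1.03 and 1.10). Within isolation 2 the changes at 3, 6 and 12 h were 0.74, 0.89 and 0.97, and within isolation 3 they were 1.67, 1.92 and 1.99.

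Jun, the main partner of the Fos proteins (ENSMUSG00000052684, chromosome 4, 95049034 to 95052222, minus strand), held 3651 and 2724 CPM at 0 h and 1926, 2101 and 2218 CPM at 3 h, a difference that was not called (log2 fold change -0.61 ± 0.21, adjusted p = 0.147). It fell 3.12-fold from 3 to 6 h, to 594.5, 639 and 768 CPM (-1.64 ± 0.20, adjusted p = 0.000342). Between 6 and 12 h no difference was called (-0.02 ± 0.19, adjusted p = 1.00), at which it held 568 to 709 CPM. From 12 to 24 h it fell again, by 1.07 on the log2 scale (adjusted p = 0.0249), to 258.5 and 366 CPM; this was lost without the 24 h library of isolation 1 (-0.82), in a fit of the 2 groups alone (-1.07) and with library size scaling (-0.89). From 24 to 96 h it fell by 1.60 (SE 0.22, adjusted p = 0.000558), to 92.3, 90.5 and 126 CPM. The level at 96 h was 31.0-fold below 0 h (-4.95 ± 0.24, adjusted p = 3.47e-09), and lower in both isolations with a 0 h library (-5.33 and -4.43). Jun and Fos thus had opposite directions between 24 and 96 h, each called. The antisense gene Junos, which overlaps 689 bases at the 5′ end of Jun, never exceeded 9.03 CPM.

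Junb, a Jun protein that can restrain Jun at some promoters (ENSMUSG00000052837, chromosome 8, 84974484 to 84978718, minus strand), declined steadily. Its libraries held 3913 and 3139 CPM at 0 h, 2027 to 2304 CPM at 3 h, 1426 to 1766 CPM at 6 h, 827 to 1230 CPM at 12 h, 359 to 480 CPM at 18 h, 358 and 284 CPM at 24 h and 156 to 333 CPM at 96 h. Ranges did not overlap between any neighbouring timepoints up to 24 h, though those at 18 and 24 h nearly met (358.5 and 357.7 CPM). The step from 18 to 24 h was -0.37 (adjusted p = 0.81). The only successive step called was 12 to 18 h (log2 fold change -1.30 ± 0.24, adjusted p = 0.0337), and it lost its call without the 12 h library of isolation 3 or the 18 h library of isolation 1 or 3 (-1.20 to -1.31), or in a fit of the 2 groups alone (-1.30). The first difference from 0 h that was called was at 6 h (-1.12, adjusted p = 0.00982), and it was not called without the 0 h library of isolation 2 (-0.96). By 96 h Junb was 15.5-fold below 0 h (-3.95 ± 0.27, adjusted p = 1.52e-07). Its last 351 bases overlap the 3′ end of Prdx2 on the other strand, which averaged between 8.64 CPM at 12 h and 130 CPM at 96 h. With strand unknown, the Junb values are uncertain to that extent.

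Jund, the member with a steady basal level in many tissues (ENSMUSG00000071076, chromosome 8, 70698949 to 70700616, plus strand), held 279 and 260 CPM at 0 h and 693, 576 and 459 CPM at 3 h. All 3 libraries at 3 h lay above both at 0 h, yet the 2.14-fold difference was not called (log2 fold change 1.10 ± 0.36, adjusted p = 0.12). It was called by DESeq2 (1.01), by a fit of the 2 groups alone (1.16), when the 6 h library of isolation 2 or 3 or the 96 h library of isolation 2 was left out, and among genes counted in every library (1.01). From 3 to 6 h Jund fell 3.69-fold, to 143, 233 and 91.7 CPM (-1.88 ± 0.32, adjusted p = 0.00355), after which no successive step was called. It settled at 100 ± 27.7 CPM at 12 h, 101 ± 10.9 CPM at 18 h, 134 ± 26.9 CPM at 24 h and 111 ± 34.0 CPM at 96 h, and against 0 h it was called lower at 12 h (-1.43, adjusted p = 0.00982), 18 h (-1.42, adjusted p = 0.0116) and 96 h (-1.28, adjusted p = 0.0272). The 24 h difference was -1.01 (adjusted p = 0.152). It was called by DESeq2 (-1.22), by the fit of the 2 groups alone (-1.03) and without the 6 h library of isolation 2 or 3, and DESeq2 also called 6 h (-1.03), as did the fit without the 6 h library of isolation 2 (-1.24). The call at 96 h was lost without the 0 h library of isolation 2 (-1.24) or the 96 h library of isolation 2 (-1.08). The overlapping antisense gene Gm11175 never exceeded 0.176 CPM.

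**Figure D2:**
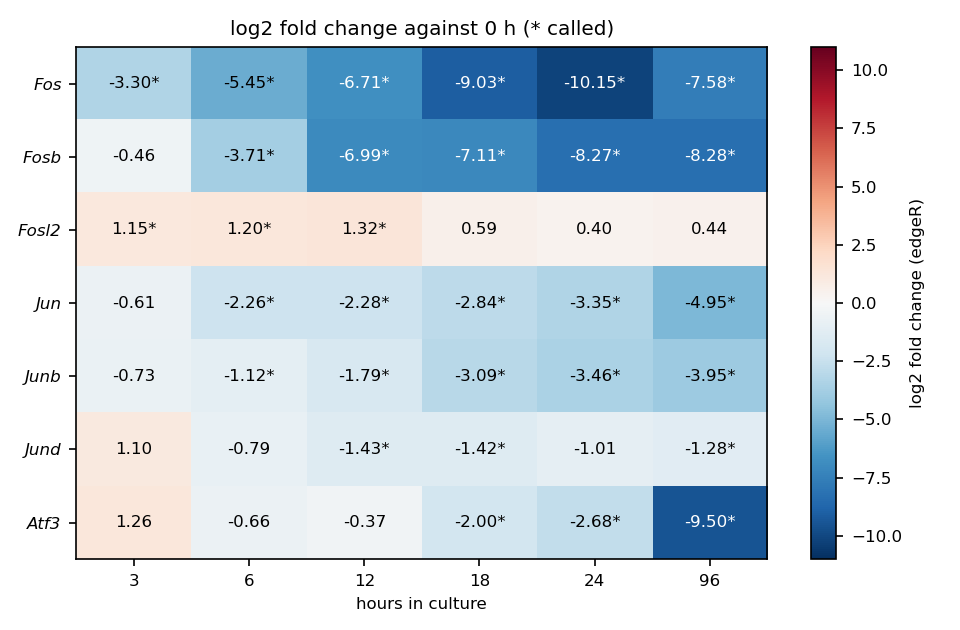
Log2 fold change against 0 h from the edgeR fit for the 7 members with counts at 0 h, by hours in culture; red is higher, blue lower, and an asterisk marks a called difference. Fos is lower at every timepoint, Fosb, Jun and Junb from 6 h, and Fosl2 is the one of the 7 that is called higher; the Atf3 value at 96 h rests on 7 counts in 1 of 3 libraries.

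Atf3, a stress-induced factor that often acts as a repressor (ENSMUSG00000026628, chromosome 1, 191170296 to 191218039, minus strand), held 456 and 247 CPM at 0 h and 1020, 629 and 886 CPM at 3 h. Every library at 3 h lay above both at 0 h, but the 2.40-fold difference was not called (log2 fold change 1.26 ± 0.59, adjusted p = 0.319), and only the fit of the 2 groups alone called it (1.32). From 3 to 6 h Atf3 fell 3.79-fold, to 187, 172 and 309 CPM (-1.92 ± 0.52, adjusted p = 0.0512). That call was lost when the 3 h library of isolation 1 or 3 or the 6 h library of isolation 1 or 2 was left out (-1.81 to -1.94). At 12 h it was 272 ± 83.5 CPM (n = 3), with no call against 6 h (0.29, adjusted p = 0.941), and against 0 h the estimate of -0.37 turned to 0.14 without the 0 h library of isolation 2. At 18 h it held 38.8, 121 and 103 CPM (lower than at 0 h, adjusted p = 0.0263) and at 24 h 44.8 and 65.1 CPM (-2.68 ± 0.66, adjusted p = 0.0169). Both calls were lost without the 0 h library of isolation 2 (-1.55 and -2.19), and that at 24 h also without the 24 h library of isolation 1 (-2.44). At 96 h Atf3 was listed at 0 in isolations 1 and 2 and had 7 counts (1.18 CPM) in isolation 3. It was called lower than at 0 h (adjusted p = 1.29e-06) and at 24 h (adjusted p = 0.00013). Within isolation 3, the one with counts at both ends, the change from 0 to 96 h was -7.20 on the log2 scale.

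Jdp2, which binds AP-1 sites with Jun and recruits histone deacetylase (ENSMUSG00000034271, chromosome 12, 85599027 to 85639878, plus strand), was listed at 0 in both uncultured libraries and had counts in all 17 cultured ones. It held 72.0, 61.1 and 81.0 CPM at 3 h, 120, 83.3 and 78.4 CPM at 6 h and 96.1, 118 and 106 CPM at 12 h, without a called step between these times. It was then 48.5, 50.5 and 51.0 CPM at 18 h, 47.6 and 31.2 CPM at 24 h and 48.5, 20.8 and 24.8 CPM at 96 h. All 6 comparisons with 0 h called it higher, with adjusted p between 2.68e-07 and 1.72e-06, but each rests on the 2 zeros. Of 2765 genes with at least 100 counts in all 17 cultured libraries, 3, Jdp2 among them, were at 0 in both uncultured libraries and 38 in 1 of them. The lowest cultured count of Jdp2 was 108, close to that cutoff. These numbers therefore do not show how often a gene at the level of Jdp2 is listed at 0. What can be read without the zeros is the later decline, which was called at 96 h against 12 h (log2 fold change -1.77 ± 0.35, adjusted p = 0.00315), against 6 h (-1.58 ± 0.34, adjusted p = 0.00645) and against 3 h (-1.19 ± 0.34, adjusted p = 0.0334). The last was lost without the 96 h library of isolation 2 or 3 (-0.96 and -1.04) and with library size scaling (-0.99). Gm47863, which overlaps the first 165 bases of Jdp2 on the other strand, never exceeded 7.26 CPM.

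Ratios of 2 members that both have counts in a library do not depend on how libraries are scaled to each other. Such ratios show which member gained on which. With a member listed at 0, the ratio rests on the 0.5 added to each count and moves with depth. This holds for Atf3 to Jdp2 at 0 h and in part at 96 h, and for most values of Fosl1 to Fos. The log2 ratio of Junb to Jund counts was 3.70 ± 0.16 at 0 h (n = 2), dropped to 1.91 ± 0.23 at 3 h (n = 3), returned to 3.48 ± 0.52 at 6 h and 3.36 ± 0.34 at 12 h, and then declined to 2.04 ± 0.37 at 18 h, 1.27 ± 0.06 at 24 h and 1.01 ± 0.19 at 96 h. The 3 h libraries lay below every library at 0, 6 and 12 h. Timepoint accounted for 93.9% of the variance of this ratio (permutation test, one-sided, p = 1e-05, the smallest that 100000 permutations can give; adjusted p = 1.5e-05 over the 3 ratios tested). The ratio of Atf3 to Jdp2 went from 3.54 ± 0.25 at 3 h to 1.22 ± 0.68 at 6 h and 0.49 ± 0.81 at 24 h. Over all timepoints the share was 96.4% (p = 1e-05, adjusted p = 1.5e-05, same permutation test), but 0 and 96 h include libraries listed at 0; over 3 to 24 h it was 83.5% (permutation p = 0.0057). For Fosl1 to Fos the share was 70.3% (permutation p = 0.011, adjusted p = 0.011), which carries the 15 zeros of Fosl1. The ratio of Fosl2 to Fos was chosen after its values were seen and was not tested. It was -4.27 ± 0.44 at 0 h and 0.27 ± 0.33 at 3 h, went through 2.52 ± 0.39, 3.89 ± 0.50 and 5.53 ± 0.60 at the next 3 timepoints to 6.34 ± 0.05 at 24 h, and was 3.83 ± 0.16 at 96 h. It climbed through 24 h and came down again at 96 h, when Fos was higher and Fosl2 had hardly moved.

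**Figure D3:**
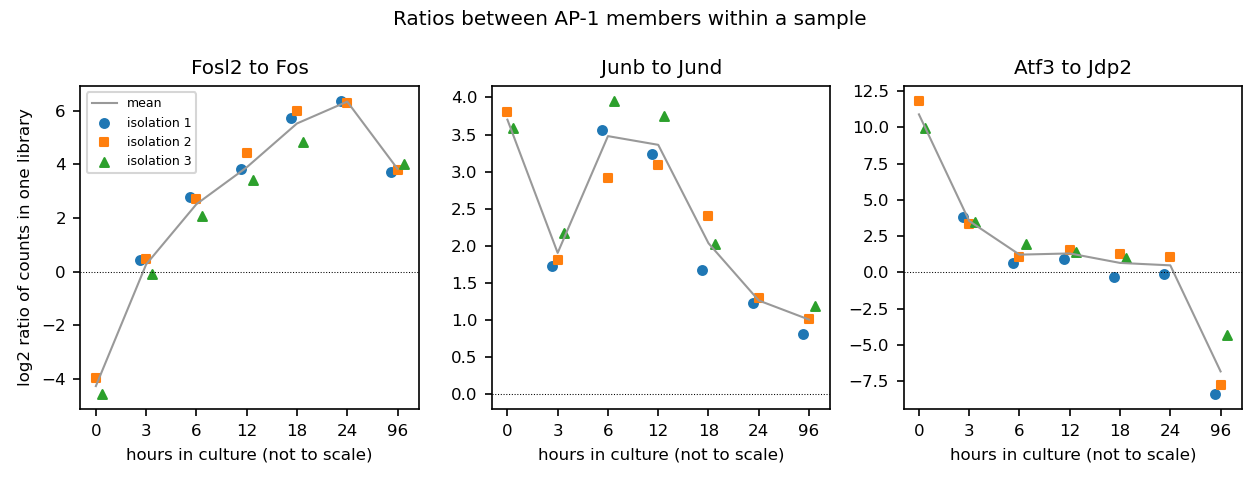
Log2 ratio of counts (0.5 added) of 2 AP-1 members in the same library, against hours in culture (timepoints evenly spaced, not to scale), with symbols for the isolation and a line through the group means. Fosl2 gains on Fos up to 24 h, Junb to Jund dips at 3 h and declines after 12 h, and the Atf3 to Jdp2 values at 0 and 96 h include libraries listed at 0.

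The pattern of each member over the 19 libraries was compared with that of 8581 other genes of at least 10 CPM, by Pearson's r of log2(CPM + 0.5). These are descriptions over libraries that share timepoints. Fosl2 was most like Maff (r = 0.945), a small Maf protein of the same bZIP class. Junb was most like Sparcl1 (0.963), Rgs5 (0.961), one of the stellate markers, and Tgfbi (0.957), and Jun like Ntm (0.940), Tgfbi (0.938) and Tent5a (0.933). Fosb was most like App (0.962), Atf3 like Ltbp4 (0.952), Jund like Tut7 (0.925) and Jdp2 like Prdm4 (0.954), with Tnfrsf12a, the receptor of the cytokine TWEAK, also at 0.952. Fosl1 had no gene above 0.731. The values for Jdp2, Atf3 and Fosl1 include the libraries in which these members were listed at 0, and are limited by that. Fos was most like 3 mitochondrial or mitochondrial-derived transcripts, Gm28437 (0.974), mt-Co3 (0.974) and mt-Cytb (0.961). The 37 mitochondrial genes took 12.7 to 14% of counts at 0 h, 5.92 to 8.14% at 3 h, 3.62 to 4.54% from 12 to 24 h (3.67 to 4.33% at 12 h) and 5.54 to 6.09% at 96 h, so this share, like Fos, was highest at 0 h and higher at 96 h than at 24 h. Its part in the Fos values was not tested.

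The genes around AP-1 were taken from 4 lists of 70 genes, of which 66 could be tested. The numbers called take in genes listed at 0 in some of the libraries compared. At 3 h, 10 of the 12 other bZIP factors and 16 of the 19 upstream genes had no such zero. The same held for 13 of the 17 inhibitors and feedback genes and 12 of the 18 targets. Among 12 other bZIP factors that dimerise with AP-1 proteins or bind related sites, 5 were called higher at 3, 6, 12 and 18 h, 3 at 24 h and 1 at 96 h, and 0 were called lower at 3 h and 3 at 96 h, beside 4.19% of all genes called higher at 3 h and 5.03% lower at 96 h. The total called, in either direction, went from 5 to 3 at 3 h, from 7 to 4 at 12 h and from 8 to 5 at 18 h without the uncultured library of isolation 3, and from 5 to 2 at 24 h without the 24 h library of isolation 2. At 96 h it went from 4 to 2 without either uncultured library or the 96 h library of isolation 2 or 3. The number called over all genes fell as well. Without the uncultured library of isolation 3 it went from 844 to 580 at 3 h and from 2680 to 1924 at 12 h. Without the 24 h library of isolation 2 it went from 1440 to 898 at 24 h. Atf4, the factor of the integrated stress response, rose from 151 ± 44.9 CPM at 0 h to 1160 ± 147 CPM at 3 h (log2 fold change 2.94 ± 0.29, adjusted p = 1.48e-05), was highest at 6 h (1528 ± 599.5 CPM) and at 96 h was not called against 0 h (224 ± 37.8 CPM, adjusted p = 0.238). Maff rose from 33.6 ± 23.4 to 316 ± 1.07 CPM at 3 h and remained called higher through 96 h (104 ± 21.5 CPM, 1.61 ± 0.37, adjusted p = 0.0103). Mafk, its close relative, rose from 44.0 ± 22.9 to 304 ± 36.9 CPM at 3 h (2.79 ± 0.40, adjusted p = 0.000424) and was last called at 18 h (1.02 ± 0.37, adjusted p = 0.0879). Genes called lower included Maf, a large Maf factor, from 6 h on, Batf2 at 18 h and Atf2 at 96 h.

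Of 19 kinases and factors that act upstream of AP-1, 1 was called at 3 h (5.58% of all genes), 4 each at 6 and 12 h (11.3% and 17.7% of all genes), 3 at 18 h (15.9%) and 4 at 96 h (10.9%), a share near or above that of all genes. At 24 h edgeR and DESeq2 called none (9.51% of all genes), with 2 at an unadjusted p under 0.05; library size scaling called 3, and 4 of the fits that left out 1 library called 1. Without the uncultured library of isolation 3 1 was called at each of 6, 18 and 96 h and 2 at 12 h; at 3 h 2 were called without that of isolation 2, and at 96 h 2 and 1 without the 96 h libraries of isolations 1 and 2. Mapk3, which encodes the kinase ERK1, fell from 314.5 ± 87.5 CPM at 0 h to 96.7 ± 41.2 CPM at 6 h (-1.70 ± 0.33, adjusted p = 0.00307) and was 397 ± 34.8 CPM at 96 h (0.34, adjusted p = 0.634). Map2k3, an activator of the p38 kinases, rose from 93.0 ± 27.8 to 421 ± 108 CPM at 3 h (2.18 ± 0.32, adjusted p = 0.000519). It was also called at 96 h (1.11 ± 0.30, adjusted p = 0.0287), but at 24 h its fold change was under 2 (0.98, adjusted p = 0.0842). Map2k1, which encodes the ERK activator MEK1, was called higher at 12 h only (94.5 ± 5.06 to 231 ± 23.3 CPM, 1.29 ± 0.26, adjusted p = 0.00288); its values at 18 and 24 h were 0.79 (adjusted p = 0.0578) and 0.84 (adjusted p = 0.0830), each a fold change under 2.

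The 17 inhibitors and feedback genes, which switch off the kinases or the immediate early mRNAs, were called in both directions, 2 higher and 3 lower at 3 h (4.19% and 1.39% of all genes) and 1 higher and 6 lower at 96 h (5.83% and 5.03%). The 5 called at 3 h became 2 without the uncultured library of isolation 2, 3 without the 3 h library of isolation 2 or 3, and 3 without the filter on low counts; the 7 called at 96 h became 4 without the uncultured library of isolation 2. Zfp36, which encodes tristetraprolin and marks short-lived mRNAs for decay, fell from 561 ± 101 CPM at 0 h to 237 ± 59.5 CPM at 6 h (-1.24 ± 0.34, adjusted p = 0.0283) and 16.5 ± 7.45 CPM at 96 h (-5.08 ± 0.38, adjusted p = 3.48e-07). Dusp1, a phosphatase of the stress kinases, fell with Fos by 3 h, from 1109 ± 300 to 298 ± 92.9 CPM (-1.89 ± 0.36, adjusted p = 0.00492), and was called lower at every later time. Dusp6, a phosphatase of ERK, was lower at 3 h (-1.61 ± 0.34, adjusted p = 0.00962), at 376 ± 23.0 CPM did not pass the test at 6 h (0.23, adjusted p = 0.758), and was lower again from 18 h on. Dusp8 and Dusp10 were the 2 called higher at 3, 6 and 18 h.

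Genes known as AP-1 targets were called higher more often than lower at all 6 timepoints. Of 18 tested, the number called higher in order of time was 9, 12, 12, 10, 8 and 10, beside the shares of all genes called higher given above (4.19% at the lowest and 8.60% at the highest). Those called lower were Ccnd1 at 3 h, Ccnd1 and Spp1 at 6 h, and Ccl2 and Mt2 at 96 h. Among the targets with no library at 0 in either group, the median log2 fold change was 2.13 at 3 h, 3.27 at 12 h (12 genes each) and 1.36 at 96 h (12 genes). Ccl2, the chemokine that draws monocytes, rose from 187 ± 47.0 CPM at 0 h to 2864 ± 670 CPM at 3 h and 5804 ± 419 CPM at 12 h (4.95 ± 0.36, adjusted p = 2.73e-07) and was called lower than at 0 h at 96 h (83.8 ± 7.23 CPM, -1.16 ± 0.29, adjusted p = 0.0164). Hmox1, the heme-degrading enzyme, went from 32.9 ± 10.3 CPM at 0 h to 209 ± 22.2 CPM at 3 h and 2399 ± 1018 CPM at 6 h (6.20 ± 0.41, adjusted p = 2.04e-07). RNA levels of a target do not show which factor acted on it, and no binding was measured.

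**Figure D4:**
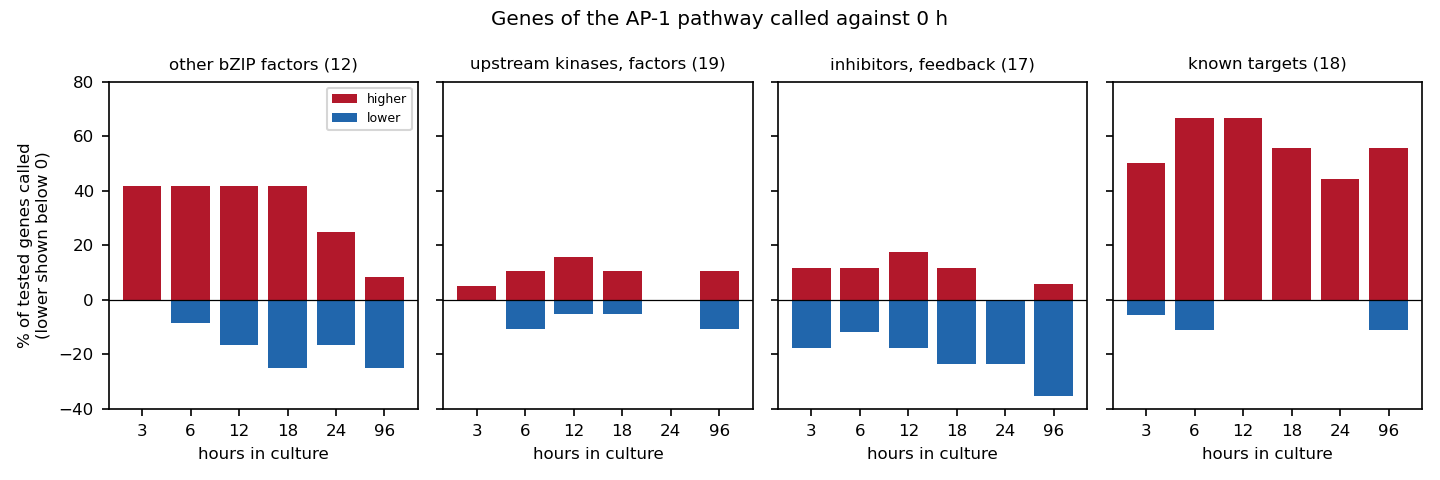
Share of the tested genes of 4 AP-1 pathway lists called higher (red) or lower (blue, below 0) than at 0 h, by hours in culture; the number tested is in brackets. The targets that are called are mainly higher at all 6 timepoints, while the other 3 lists have calls in both directions; the shares of all genes called higher or lower are not drawn.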

How the data were processed

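RNA of 19 libraries of sorted mouse HSCs was measured by 3′ mRNA sequencing (QuantSeq FWD), each sample from 2 technical repeats. The authors trimmed the reads, aligned them to GRCm38 with STAR, assembled genes with StringTie (no versions in the submitters' processing notes) and deposited raw counts per Ensembl gene; the counting step, its annotation and its use of strand are not given in the sources used here. All deposited columns were used, and 55227 of 55487 row identifiers matched a symbol in GENCODE M21.

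Counts were fitted with edgeR 4.0.16 (R 4.3.3; TMM, filterByExpr, quasi-likelihood F test, timepoint as the only factor), with Benjamini-Hochberg adjustment over the 15138 genes tested in each comparison and calls at adjusted p below 0.1 and fold change above 2. DESeq2 1.42.0 was an alternative. Libraries held 2073171 to 7690892 counts. Tested on simulated counts at 12 h against 0 h over 15138 genes, the fit recovered 78 of 200 changed genes (35% of those changed 4 times and 43% of those changed 8 times) with 4 false calls. Samples sharing an isolation number share an isolation date per the labels (1 date for isolations 1 and 3, another for isolation 2), so the number was used as a block in an alternative fit; deviations from timepoint means correlated at a mean r of 0.0143 for 51 same-number pairs and -0.00704 for 103 others. Whether 1 isolation is 1 mouse or a pool is not given in the labels, and p-values measure the spread between these samples. Ratios of members were tested by permuting libraries. Named genes are all 9 members, the 3 genes per pathway list with the smallest p over time, and the 3 genes most like each member, of which some are printed and some are not reported here. The members and lists were chosen with earlier results of these data known. Figures were drawn with matplotlib.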

Additional observations from a re-analysis of the deposited data

How the results depend on the processing

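The numbers of AP-1 members called against 0 h, from 3 to 6 h and from 24 to 96 h stayed within 1.5 times of the reported ones under every alternative run. The smaller steps did not. From 6 to 12 h 1 member in place of 2 was called in a fit of the 2 groups alone, at an adjusted p under 0.05 and with libraries thinned to the smallest total. From 12 to 18 h DESeq2 called 4, edgeR on the 2 groups alone 0 (2 with all libraries fitted) and the thinned libraries 1. Leaving out 1 library gave 1 to 2 members for each of these steps, and 17 to 27 pathway genes at 96 h, with 17 without the 0 h library of isolation 2. The 4 estimates that changed sign, none of them called, did so without 1 uncultured library: without isolation 2, Fosb at 3 h (0.074) and Atf3 at 12 h (0.137), and without isolation 3, Fosl2 at 24 h (-0.046) and 96 h (-0.007). Over all such omissions these ranged from -0.834 to 0.074 (Fosb), -0.768 to 0.137 (Atf3), -0.046 to 1.029 and -0.007 to 1.096 (Fosl2). The causes were not tested. With the isolation number as a replicate block, Atf3 lost its calls at 24 h against 6 h (-1.91) and 12 h (-2.18). Both were also lost with library size scaling (-1.81 and -2.13), at an adjusted p under 0.05 and without any of several single libraries (-1.71 to -2.28 and -2.04 to -2.57), and the second with the isolation date as covariate (-2.33). Under the block, upstream genes called went from 0 to 1 at 24 h and from 4 to 2 at 96 h, and no other member call changed. The fit of the 6124 genes counted in every library, chosen after seeing the data, holds 6 members and lowered the biological coefficient of variation from 1.06 to 0.374; it added calls for Jund at 3, 6 and 24 h (1.01, -1.01 and -1.20) and put Fosl2 at 6 h just under the fold threshold (0.997). The 3 to 24 h ratio of Atf3 to Jdp2 was also chosen after seeing the data. DESeq2 called more of all genes: 1534 against 844 at 3 h, 2589 against 1715 at 6 h and 2229 against 1440 at 24 h, and 8 inhibitors in place of 4 at 6 h. All genes called became 898 at 24 h without the 24 h library of isolation 2 and 1043 in place of 1644 at 96 h without the 0 h library of isolation 2, and targets called at 6 h went from 14 to 9 without the 0 h library of isolation 3. Scaling by library size moved the median of all genes to 0.237 at 24 h and 0.221 at 96 h. Depth limits Fos at 18 and 24 h, Fosb after 12 h and Atf3 at 96 h.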
